A study of Solanum virginianum with 36 samples.

Results

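The comparison set the leaf RNA of a thrips-resistant eggplant line against that of a thrips-susceptible line after 48 h of feeding by thrips. It used 6 libraries, 3 of each line, out of 36 in the series, and it was made across all gene IDs of the deposited count table. The series followed both lines at 0, 4, 8, 12, 24 and 48 h, with 3 libraries per line and time that the labels call biological replicates. Plants of both lines were raised in pots in a greenhouse with 16 h of light and 8 h of darkness and were sampled 1 week after transplanting. All groups carry thrips feeding as their treatment label, the 0 h groups too. The organism label reads Solanum virginianum, whereas the series and its design speak of eggplant. The labels name neither accession, so each line stands for 1 unnamed source. Leaves kept without thrips until 48 h are not among the labelled groups, so the effect of feeding and that of age or growth cannot be told apart at this time.

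Thrips pierce single leaf cells and suck out their contents. Plants answer such feeding with hormone signals, of which jasmonate is the best known, and with stored or newly made compounds that deter the insect. Quinic acid, named in the title of the series, is an alicyclic acid that branches from the shikimate pathway and forms part of chlorogenic acid, a phenolic of eggplant tissues. The files give gene IDs without names or descriptions, so no ID is assigned here to any of these pathways, and leaf marker genes could not be looked up. An ID consists of the number of an assembled sequence and the number of a gene on it.

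The 6 libraries at 48 h summed to 32321897 to 40332277 estimated counts each, leaving aside rows that carry no ID, and 22094 to 24426 IDs had a count. Between replicates of a line, log2 CPM (the count scaled to a common library total) correlated across tested IDs at 0.942 to 0.954, and between lines at 0.794 to 0.823. The highest values between lines, 0.818 to 0.823, all belonged to resistant replicate 3. That library holds small amounts of transcripts particular to the other line, as measured next, and the main counts of each comparison and the named IDs are given with and without it. Other values use all 6 libraries unless stated otherwise. Differences in the counts of these whole leaves cannot separate fewer cells of a type from less RNA per cell.

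Resistant replicate 3 was read with IDs chosen only from the 30 libraries of the other times. At those times 153 IDs had at most 3 counts over the 15 resistant libraries and a mean of at least 5 CPM over the 15 susceptible ones. At 48 h, resistant replicate 1 had a count for 0 of the 153 IDs (95% Clopper-Pearson interval 0 to 2.38%). Resistant replicate 2 had a count for 1 of them, 0.654% (95% Clopper-Pearson interval 0.0165 to 3.59%). Resistant replicate 3 had counts for 106 of them, 69.3% (61.3 to 76.5%). These intervals take the IDs of a library as independent draws and cover no spread between libraries. Reads without molecular identifiers are also not independent molecules.

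The amounts in replicate 3 were small. The median over the 152 IDs with a count in the susceptible line at 48 h was 1.42% of the mean susceptible level, with quartiles of 0 and 2.5% and a highest value of 27.0%. None of the IDs reached 50% of that level. Among 14 IDs under 5 CPM in the susceptible line at 48 h, 6 had a count in replicate 3 and the median was 0%. Among 109 IDs at 5 to 20 CPM in the susceptible line at 48 h the median was 1.47%, and among 29 IDs at 20 to 100 CPM it was 1.46%. Summed over the IDs, replicate 3 held 1.81% of the susceptible level.

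**Figure D1:**
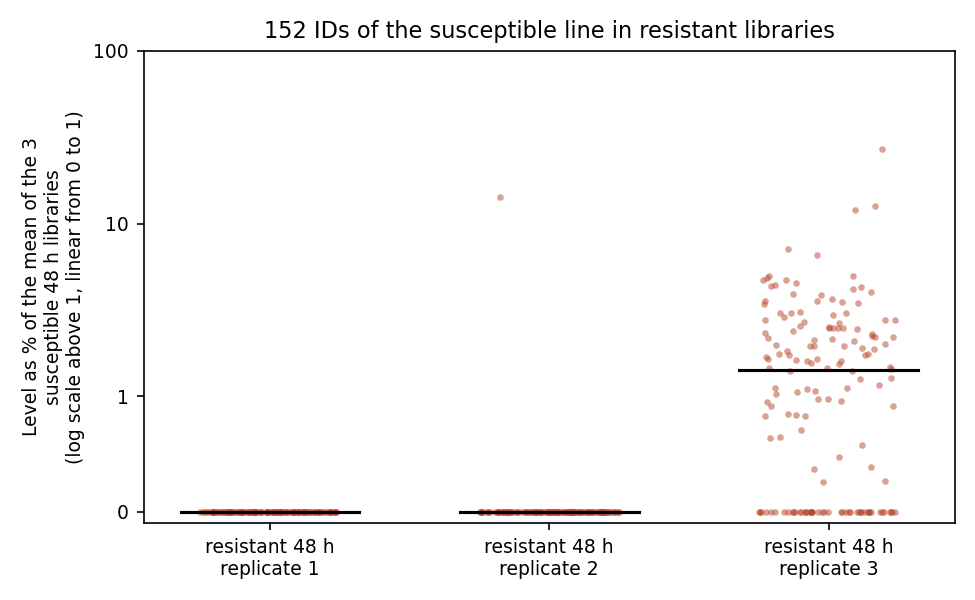
Level of 152 IDs of the susceptible line in the 3 resistant libraries at 48 h, in percent of the mean of the 3 susceptible 48 h libraries (log scale above 1%, linear from 0 to 1%). Each point is an ID, with points spread sideways for visibility, and black bars are medians, which lie at 0 in replicates 1 and 2 and at 1.42% in replicate 3.

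Across the 153 IDs, log2(CPM + 0.1) in replicate 3 correlated at 0.49 with the mean of the susceptible libraries at 48 h, at 0.45 with those at 0 h and at 0.34 to 0.37 with those at 4 to 24 h. All of these values use the same library and the same IDs and are a description. The reverse was not seen at 48 h. At the other times 52 IDs had at most 3 counts over the 15 susceptible libraries and at least 5 CPM in the resistant ones. Of these 52 IDs, susceptible replicates 1 and 2 at 48 h each had a count for 0 (95% Clopper-Pearson interval 0 to 6.85%). Susceptible replicate 3 had counts for 1, at 94.8% of the resistant level.

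The question of the comparison was how RNA levels differ between the lines once thrips have fed for 48 h. Of 23719 IDs tested, 10028 (42.3%) differed in edgeR's quasi-likelihood test at an adjusted p under 0.05, with 4552 (19.2%) higher and 5476 (23.1%) lower in the resistant line. Without resistant replicate 3, 8957 of 24394 IDs (36.7%) differed, 4166 (17.1%) higher and 4791 (19.6%) lower. Among the IDs of the first test, 8496 were called in the same direction both ways, 84.7% of the calls with and 95.6% of those without that library. No ID was called in opposite directions. Of all tested IDs, 12512 (52.8%) showed no overlap between the 3 resistant and the 3 susceptible libraries.

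Many of the differences were small. Of the 10028 IDs, 3403 (33.9%) had a fitted difference below 2-fold. A difference beyond 2-fold was itself established by edgeR's glmTreat for 4024 IDs (17%), with the resistant line higher in 1421 (5.99%) and lower in 2603 (11%). With resistant replicate 3 left out it was established for 3692 IDs (15.1%), with 1336 (5.48%) higher and 2356 (9.66%) lower.

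**Figure D2:**
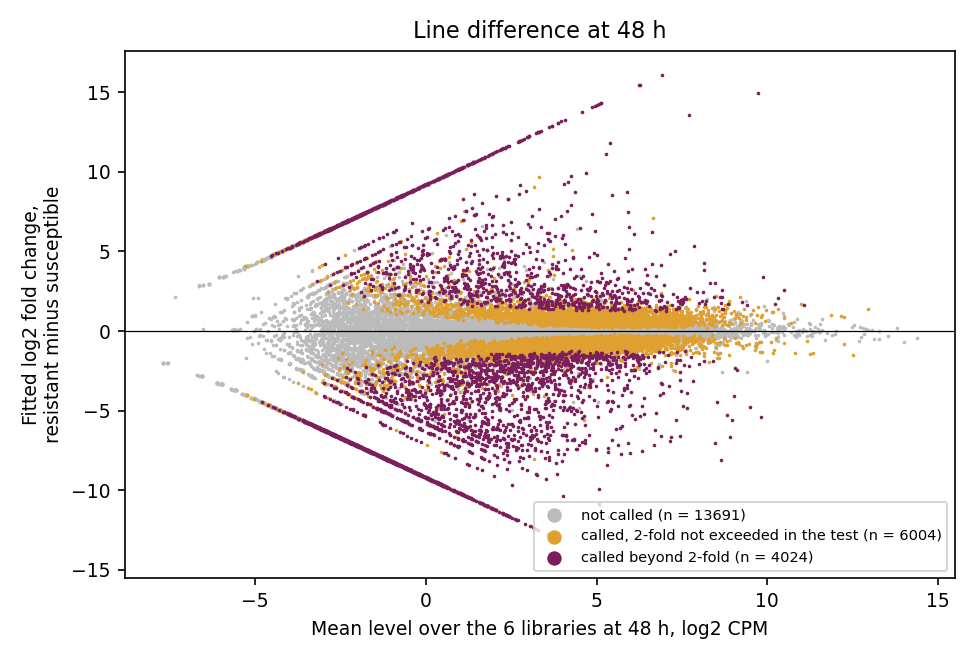
Fitted log2 fold change between lines at 48 h (resistant minus susceptible) against the mean level over the 6 libraries in log2 CPM, 1 point per tested ID. The 4024 IDs called beyond 2-fold, 2603 of them lower in the resistant line, lie mostly below 100 CPM, and the straight outer bands are IDs with no count in 1 line, whose fitted values depend on the prior count. The 122 tested IDs without a count at 48 h are not drawn.

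The direction of the differences went with the level of the ID between 1 and 1000 CPM. Among called IDs with a mean of 1 to 10 CPM over the 6 libraries, the resistant line was higher in 1030 and lower in 1879, so that 35.4% were higher. At 10 to 100 CPM, 2212 were higher and 1917 lower. At 100 to 1000 CPM, 512 were higher and 296 lower, so that 63.4% were higher. On calls made without resistant replicate 3 these shares were 36.1% at 1 to 10 CPM and 65.0% at 100 to 1000 CPM. Differences beyond 2-fold were found for 23.9% of the IDs at 1 to 10 CPM and for 5.97% of those at 100 to 1000 CPM. Above 1000 CPM, 14 called IDs were higher and 11 lower, so that 56% were higher, or 52.2% on calls without resistant replicate 3. At that level 4 of 110 IDs differed by more than 2-fold, all of them higher in the resistant line.

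Differing IDs made up a sizeable part of the RNA measured. IDs called higher in the resistant line held 25.4 to 29.3% of the counts of its 3 libraries and 12.9 to 14.0% of those of the susceptible line. IDs called lower held 7.77 to 10% in the resistant and 19.8 to 20.3% in the susceptible line. For calls made without resistant replicate 3, the IDs called higher held 23.3 to 26.6% in the resistant and 11.1 to 12.4% in the susceptible libraries, and those called lower 6.96 to 8.6% and 18.3 to 18.6%. These shares describe the IDs that the test selected and are no further evidence. IDs that were not called with all libraries held 63.0 to 67.3% in each library.

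The largest fold differences at 48 h were of IDs with no count in 1 line. By the rule described under the processing, 2 IDs were named in each direction for each kind of difference. Sme2.5_06818.1_g00003 stood at 202, 246 and 270 CPM in the 3 resistant libraries and at 0 in the 3 susceptible ones. It was at least 7820-fold higher in the resistant line, against a floor of 3 counts over the 3 susceptible libraries (edgeR adjusted p = 6.8e-15), and at least 7324-fold higher without resistant replicate 3. Among the resistant groups its mean was lowest at 8 h, with 59.5 CPM, and highest at 48 h, with 239 CPM. It was 121 CPM at 0 h and 212 CPM at 24 h. No susceptible library of any time held a count.

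Sme2.5_09812.1_g00003 was at 127, 128 and 212 CPM in the resistant libraries and at 0 in the susceptible ones, at least 5090-fold higher (edgeR adjusted p = 4.6e-08) and at least 4176-fold higher without resistant replicate 3. Its resistant libraries of the other times ranged from 3.94 to 307 CPM. In the other direction, Sme2.5_02311.1_g00006 was at 0 in the resistant libraries and at 48.7, 53.8 and 64.7 CPM in the susceptible ones, at least 1694-fold lower in the resistant line (edgeR adjusted p = 1.7e-06). Without resistant replicate 3 the floor of 3 counts is spread over fewer libraries and the bound is 1074-fold (edgeR adjusted p = 1.5e-05). Sme2.5_12114.1_g00004 was likewise at 0 in the resistant libraries, beside 26.4, 23.9 and 31.3 CPM in the susceptible ones, and was at least 827-fold lower (edgeR adjusted p = 1.6e-12), or at least 524-fold lower without resistant replicate 3. For both IDs, resistant replicate 3 was at 0 like the other 2 libraries, and all 15 resistant libraries of the other times were too.

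**Figure D3:**
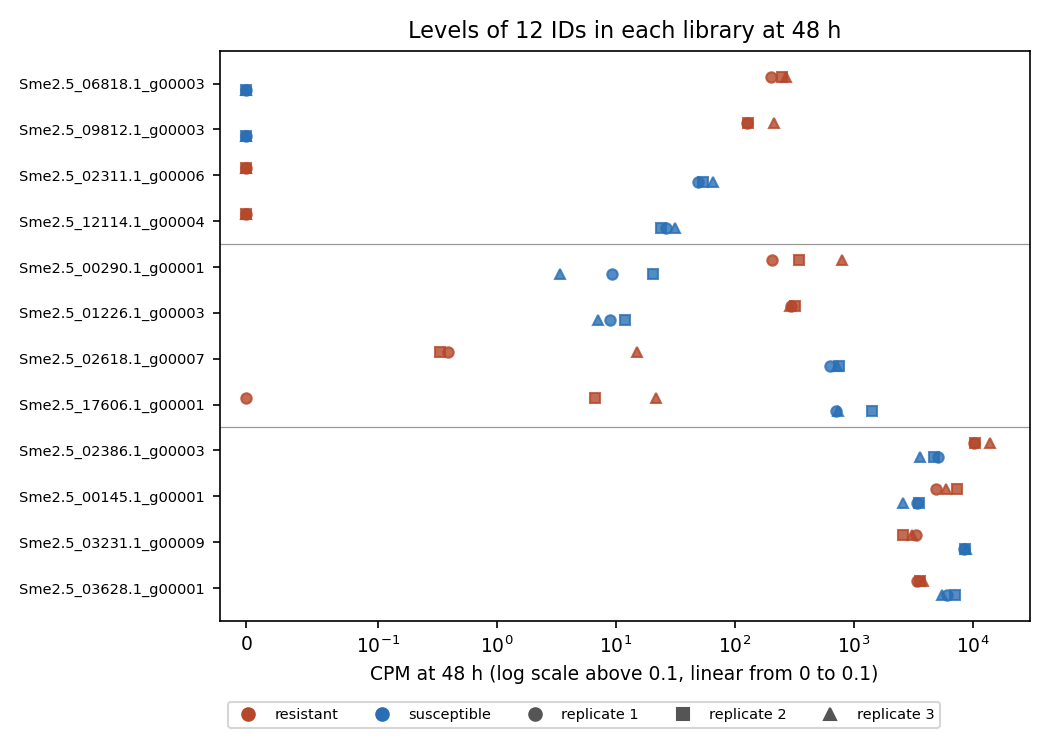
CPM of 12 IDs in each of the 6 libraries at 48 h (log scale above 0.1, linear from 0 to 0.1), with lines in colour and replicates by symbol. From top to bottom the blocks hold the largest folds, the largest folds with a mean of at least 5 CPM in each line, and the largest differences in CPM. In the middle block, resistant replicate 3 (triangle) stands at 15.1 and 21.5 CPM for the last 2 IDs, above the other resistant libraries.

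A gene that a line lacks, one whose sequence differs too much from the reference and one that is silent cannot be told apart in such a table. In all, 523 IDs combined at most 3 counts over the 3 resistant libraries at 48 h with a mean of 1 CPM or more in the 3 susceptible ones, and 381 of them had no count at all. Their median level in the susceptible line was 2.17 CPM, and 41 of them reached 10 CPM there. Of the 523 IDs, 351 also had at most 3 counts over the 15 resistant libraries of the other times. When resistant replicate 3 was left out the same rule gave 845 IDs, 738 of them without a count, and 146 of them reached 10 CPM. Leaving out resistant replicate 1 or 2 gave 596 or 561.

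Of the 845 IDs, 424 (50.2%) had a count in resistant replicate 3. The median level there, over all 845, was 0.159% of the susceptible level, with an upper quartile of 3.83% and a highest value of 455%. The highest level in resistant replicate 3 was 578 CPM, so not all of these IDs were low in that library. In the 15 resistant libraries of the other times, 500 of the 845 also had at most 3 counts in all. The reverse pattern, at most 3 counts over the susceptible libraries and at least 1 CPM in the resistant line, held for 296 IDs, 246 of them without a count. Of these 296, 156 had at most 3 counts over the 15 susceptible libraries of the other times as well. With resistant replicate 3 left out there were 284.

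Among IDs with a mean of at least 5 CPM in each line, the largest differences at 48 h were smaller than those of the IDs at 0 in 1 line. Sme2.5_01226.1_g00003 was at 293, 322 and 291 CPM in the resistant libraries and at 8.94, 11.9 and 7.09 CPM in the susceptible ones. The log2 difference was 5.02 ± 0.29 (SE; edgeR adjusted p = 7.9e-13), and 5.06 without resistant replicate 3. The groups lay far apart, with a ratio of means of 32.4. Its resistant group means were steady over the series, at 245 to 302 CPM. Its susceptible means were highest at 0 h, with 40.9 CPM, and lowest at 48 h, with 9.31 CPM. The line difference of this ID was larger at 48 h than at 0 h by 2.43 on the log2 scale (edgeR adjusted p of that contrast = 1.5e-03). Against the mean of the other 5 times the contrast was 1.44 (edgeR adjusted p = 5.6e-03). Against 24 h it was 1.03 and did not pass (edgeR adjusted p = 0.28). The log2 line difference was already 4.36 at 12 h and 3.99 at 24 h.

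Sme2.5_00290.1_g00001 varied far more between replicates. It was at 205, 342 and 794 CPM in the resistant and at 9.20, 20.4 and 3.36 CPM in the susceptible libraries, a log2 difference of 5.35 ± 1.30 (SE; edgeR adjusted p = 1.7e-03), and 4.65 without resistant replicate 3 (edgeR adjusted p = 6.5e-03). The groups did not overlap at 48 h, but at 4 h the resistant libraries reached down to 3.21 CPM and the susceptible ones at 24 h up to 487 CPM.

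The largest folds in the other direction owe their place in this class to resistant replicate 3. Sme2.5_02618.1_g00007 was at 0.389, 0.334 and 15.1 CPM in the resistant and at 626, 752 and 724 CPM in the susceptible libraries. Its log2 difference was -7.04 ± 0.95 (SE; edgeR adjusted p = 1.4e-06) and -10.89 without resistant replicate 3 (edgeR adjusted p = 1.7e-10). In the susceptible line this ID had means of 59.5 CPM at 0 h, 3.17 to 5.15 CPM at 4 to 12 h, 118 CPM at 24 h and 700 CPM at 48 h. The resistant means stayed at 0.629 to 1.20 CPM at all earlier times. The contrast of its line difference at 48 h with that of the other times missed the threshold with all libraries, at -2.87 on the log2 scale (edgeR adjusted p = 5.7e-02), and passed it without resistant replicate 3, at -6.74 (edgeR adjusted p = 6.6e-06).

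Sme2.5_17606.1_g00001 was at 0, 6.67 and 21.5 CPM in the resistant and at 710, 1426 and 738 CPM in the susceptible libraries. The log2 difference was -6.67 ± 1.60 (SE; edgeR adjusted p = 1.5e-03), and -8.16 without resistant replicate 3 (edgeR adjusted p = 2.5e-03). Its resistant libraries were low but scattered at the other times too, from 0 to 14.6 CPM, against 531 to 2285 CPM in the susceptible ones.

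In absolute amount, the largest differences lay in transcripts that were abundant in both lines. Sme2.5_02386.1_g00003 was at 10101, 10372 and 13925 CPM in the resistant and at 5103, 4716 and 3554 CPM in the susceptible libraries. Its log2 difference was 1.36 ± 0.31 (SE; edgeR adjusted p = 1.0e-03), and 1.21 without resistant replicate 3 (edgeR adjusted p = 5.6e-03). The deposited FPKM, a level per length, was 4909 to 6148 in the resistant and 1616 to 2191 in the susceptible libraries. Sme2.5_00145.1_g00001 was at 4873, 7336 and 5978 CPM against 3374, 3519 and 2600 CPM, with a log2 difference of 0.94 ± 0.25 (SE; edgeR adjusted p = 4.1e-03), and 0.96 without resistant replicate 3 (edgeR adjusted p = 7.8e-03).

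Lower in the resistant line were Sme2.5_03231.1_g00009 and Sme2.5_03628.1_g00001. The first was at 3312, 2563 and 3091 CPM in the resistant and at 8414, 8643 and 8746 CPM in the susceptible libraries, a log2 difference of -1.53 ± 0.38 (SE; edgeR adjusted p = 2.1e-03), and -1.54 without resistant replicate 3 (edgeR adjusted p = 8.5e-03). The second was at 3391, 3554 and 3812 CPM against 6021, 7041 and 5475 CPM, a log2 difference of -0.79 ± 0.23 (SE; edgeR adjusted p = 6.8e-03), and -0.82 without resistant replicate 3 (edgeR adjusted p = 1.6e-02). Sme2.5_03628.1_g00001 varied with time in both lines. Its means were lowest at 8 h, with 379 CPM in the resistant and 378 CPM in the susceptible line. Resistant means were 2871 CPM at 0 h, 3531 CPM at 24 h and 3586 CPM at 48 h. Susceptible means were 3842 CPM at 0 h, 4103 CPM at 24 h and 6179 CPM at 48 h. None of these 4 abundant IDs was shown to differ by more than 2-fold (glmTreat adjusted p of edgeR 0.13 to 1.0, and 0.17 to 1.0 without resistant replicate 3).

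The difference at 48 h was then set beside that of the other 5 times, which come from 30 other libraries fitted on their own. With all 36 libraries, 34.6% of the tested IDs differed between lines in the 0 h groups, 41.4, 42.8 and 44.7% did after 4, 8 and 12 h, and 39.2% after 24 h, beside the 42.3% of 48 h. Single times rest on 3 libraries per line, whereas the 30 libraries hold 15 per line, so their shares are not comparable. In the 30 libraries 15559 of 23483 IDs (66.3%) differed between lines. Of 9959 IDs called at 48 h and tested there, 9559 (96.0%) had a difference of the same sign, and 8719 (87.5%) had the same sign and were called. Only 99 (0.994%) were called with the opposite sign. Among 13524 IDs not called at 48 h, 9496 (70.2%) had the same sign in both sets of libraries. Leaving out resistant replicate 3, 96.4% of 8840 IDs called at 48 h had the same sign.

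Called at 48 h and at none of the other 5 times in either direction were 719 IDs, 7.17% of those called at 48 h. A call at 1 time does not show that the times differ, and the contrast of 48 h with the mean of the other times passed for 88 of them. It passed for 54 without resistant replicate 3.

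Over all IDs, that contrast passed edgeR's test for 982 (4.14%), and how many passed depended on resistant replicate 3. In 586 (2.47%) the resistant line stood higher relative to the susceptible line at 48 h than at the other times, and in 396 (1.67%) it stood lower. The contrast passed without resistant replicate 3 for 442 (1.81%), 221 (0.906%) in each direction. Shared by both lists in the same direction were 373 IDs, 38.0% of the longer and 84.4% of the shorter list. Of the 586 IDs, 211 had a mean under 0.05 CPM in the resistant libraries of the other times, against 7 of the 221 without that library.

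Of the 152 tested among the 153 IDs chosen at other times, 83 passed the contrast with resistant replicate 3 and 0 without it. Since these IDs were chosen for near absence from the resistant libraries of the other times, their choice fixed the direction, and the count only describes that library. Counts of this contrast also moved with other libraries, to 480 without resistant replicate 2 (363 higher, 117 lower), to 1432 without resistant replicate 1 (849 higher, 583 lower), and to 526 to 598 without each susceptible 48 h library in turn.

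**Figure D4:**
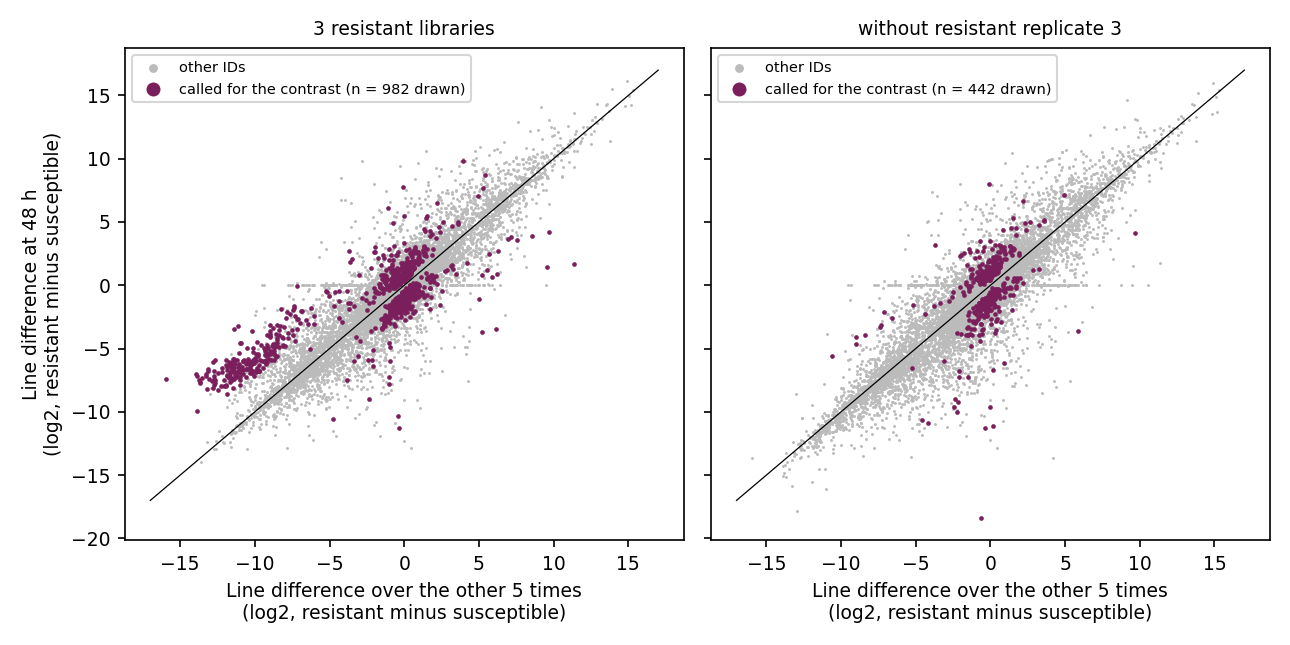
Line difference at 48 h against the line difference over the other 5 times (log2, resistant minus susceptible), 1 point per ID, with 3 resistant libraries at 48 h on the left and without resistant replicate 3 on the right. The diagonal marks equal differences, and IDs called for the contrast between 48 h and the other times are dark, 982 on the left and 442 on the right. The dark band above the diagonal at the lower left of the left panel has no counterpart in the right panel, where points of that region lie along the diagonal.

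Without resistant replicate 3, each line was also tested at 48 h against its own other times. Over all tested IDs, the resistant line was higher at 48 h in 8.18% and lower in 7.15%, and the susceptible line was higher in 7.74% and lower in 6.35%. Of the 221 IDs in which the resistant line stood higher relative to the susceptible one, the resistant line was itself higher at 48 h in 154, the susceptible line was lower in 90, and both held for 24. Of the 221 in which it stood lower, the resistant line was itself lower in 155, the susceptible line was higher in 78, and both held for 16. In 36 of the first and 28 of the second, both differences between lines were called, with opposite signs at 48 h and at the other times. The contrast is the resistant change minus the susceptible change, so the choice of these IDs largely fixed the directions within each line. The counts by line only describe the chosen IDs.

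Compared with single times, few IDs passed. The difference at 48 h was distinct from that at 0 h for 171 IDs (0.721%), 96 higher (0.405%) and 75 lower (0.316%). For 224 (0.918%) it was so without resistant replicate 3, 105 higher (0.43%) and 119 lower (0.488%). Limma on log2(FPKM + 1) gave 109 higher and 130 lower for this contrast. Against 24 h it passed for 32 IDs (0.135%), 22 higher (0.0928%) and 10 lower (0.0422%). Without that library it also passed for 32 (0.131%), 21 higher (0.0861%) and 11 lower (0.0451%), of which 18 were shared. Both counts moved with nearly every library. Against 0 h they went from 52 without resistant 48 h replicate 2 to 488 without resistant 48 h replicate 1, and stayed within 1.5 times the full count only without resistant 0 h replicate 2, susceptible 0 h replicate 3 or resistant 48 h replicate 3. Against 24 h they went from 13 without susceptible 48 h replicate 2 to 62 without resistant 48 h replicate 1, and stayed within 1.5 times only without resistant 48 h replicate 2 or 3.

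The 2 IDs with the largest contrast in each direction, among those with a mean of at least 5 CPM in each line over the other times, varied strongly between replicates. Sme2.5_00629.1_g00005 was at 54.9, 201 and 145 CPM in the resistant and at 3.82, 1.07 and 0.976 CPM in the susceptible libraries at 48 h. The susceptible libraries of the other times ranged from 0.766 to 632 CPM, so the low level at 48 h was within their range. Its contrast was 7.16 ± 1.91 on the log2 scale (SE; edgeR adjusted p = 3.0e-02), and 7.10 without resistant replicate 3, where the call was lost (edgeR adjusted p = 6.0e-02). Leaving out resistant replicate 2 or any susceptible 48 h library also ended it, with adjusted p over all alternatives (edgeR, DESeq2 and limma) from 1.0e-04 to 0.12.

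Sme2.5_02035.1_g00009 was at 2.27, 3.19 and 17 CPM in the resistant and at 0.636, 0.0943 and 0.0287 CPM in the susceptible libraries. Its susceptible libraries at 24 h were at 26.2 to 68.9 CPM, and the lowest of the other times was at 0.488 CPM. The contrast was 5.66 ± 1.19 on the log2 scale (SE; edgeR adjusted p = 8.3e-03). Without resistant replicate 3, which was the highest of its group, it fell short of the threshold at 4.20 (edgeR adjusted p = 5.3e-02, range over all alternatives 2.0e-06 to 6.0e-02).

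Sme2.5_00658.1_g00002 was at 0 in all 3 resistant libraries at 48 h and at 7.16, 7.20 and 10.7 CPM in the susceptible ones, so that it was at least 254-fold lower in the resistant line, or at least 161-fold without resistant replicate 3. Its median over the resistant libraries of the other times was 9.06 CPM, against 10.3 CPM in the susceptible line. The contrast passed with all libraries (edgeR adjusted p = 3.6e-03) and without resistant replicate 3 (edgeR adjusted p = 1.6e-02, range over all alternatives 1.8e-08 to 8.9e-02). Among the other times, 1 resistant library at 12 h was also at 0 and 1 at 0 h was at 0.200 CPM.

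Sme2.5_03245.1_g00008 did not differ between lines at 48 h past the threshold, with 73.1, 87.7 and 67.8 CPM in the resistant and 31.4, 7.58 and 44.8 CPM in the susceptible libraries (edgeR adjusted p = 0.38). At the other times the susceptible line had a median of 0 CPM, with 1 library at 4 h at 178 CPM, and the resistant line a median of 90.8 CPM. The susceptible mean of 11.9 CPM over those times rests on that 1 library. The contrast was -8.11 ± 1.90 on the log2 scale (SE; edgeR adjusted p = 1.6e-02), and -8.03 without resistant replicate 3, with an edgeR adjusted p of 6.4e-02 there and of 4.1e-06 to 6.4e-02 over all alternatives. The call was also lost without resistant replicate 2. The size of this contrast depends on the prior count, since no susceptible library at 12 h had a count. Over all alternatives it ran from -10.96 to -4.72 on the log2 scale.

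**Figure D5:**
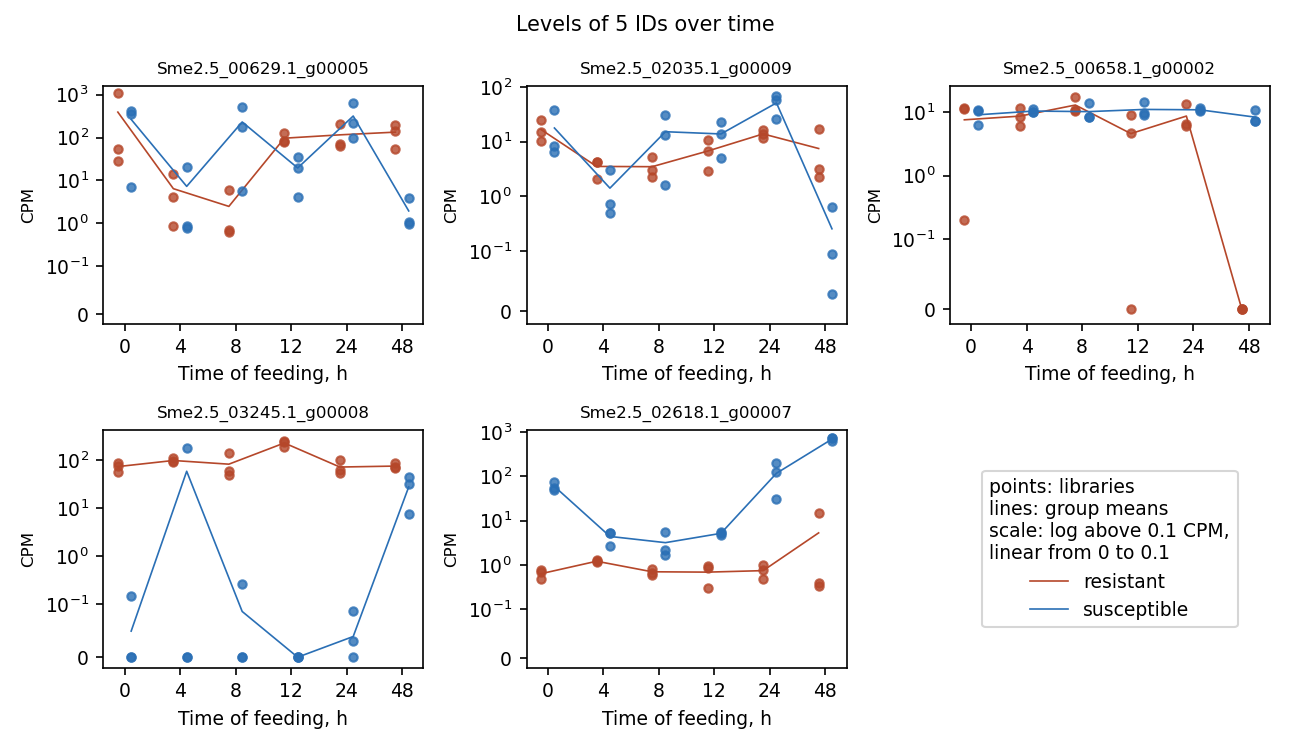
CPM over the time of feeding for the 4 IDs named for the contrast of 48 h with the other times and for Sme2.5_02618.1_g00007, drawn because its level in the susceptible line was highest at 48 h (log scale above 0.1 CPM, linear from 0 to 0.1). Points are libraries and lines join group means. At 48 h the susceptible means are 1.95 CPM for Sme2.5_00629.1_g00005, 0.253 CPM for Sme2.5_02035.1_g00009 and 700 CPM for Sme2.5_02618.1_g00007.

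IDs with a line difference had neighbours with one more often than all IDs did, and the gap was wider beyond 2-fold. Neighbours are IDs with the next lower or higher gene number on the same assembled sequence, and 16657 of the IDs tested or listed as absent from 1 line had at least 1 neighbour among these IDs. Of IDs called higher in the resistant line, 30.1% of 3182 had a neighbour in the same list, against 25.5% of all 16657. For IDs called lower it was 36.3% of 3564, against 28.1%. Of IDs beyond 2-fold lower in the resistant line, 27.6% of 1459 had a neighbour in the same list, against 11.3% of all 16657. Of IDs beyond 2-fold higher, 14.7% of 873 had one, against 6.94%. When resistant replicate 3 was left out the values were 26.0% against 10.3% for lower and 15.4% against 6.41% for higher IDs.

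For the 845 IDs absent from the resistant line without replicate 3 the share was 18.6% of 435, against 3.31%. For the 296 absent from the susceptible line it was 10.5% of 153, against 1.10%. The longest run of consecutive IDs beyond 2-fold lower held 4 IDs, and 28 such runs held at least 3, or 19 without resistant replicate 3. These shares are descriptions without a test. Whether neighbouring IDs share reads, as copies or parts of 1 gene can, was not tested.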

How the data were processed

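The values are estimated counts per gene ID for 36 leaf RNA-seq libraries, deposited by the authors as whole numbers, and FPKM deposited by the authors for the first 65535 of 89388 rows. FastQC and HTSeq 0.6.1 stand in the submitters' processing notes. Aligner, genome build and strandedness are not given in the sources used here. Against FPKM, a deposited count of 1 stood for a median of 0.30 estimated reads (11593 IDs with a stable ratio), so low counts were taken as estimates rounded up and used as deposited. Rows without an ID (3945, 4.46 to 7.28% of a library) stayed out.

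The test was edgeR 4.0.16 (R 4.3.3), quasi-likelihood, with a mean for each of the 12 groups of the 36 libraries, TMM scaling, filterByExpr (23719 of 85443 IDs, 24394 without resistant 48 h replicate 3, since the smallest group then holds fewer libraries) and Benjamini-Hochberg adjustment over all IDs at 0.05. CPM are scaled by TMM. SE were derived from the F statistic. Beyond 2-fold means glmTreat at a log2 fold of 1. Named IDs needed at least 5 CPM in the higher line, no overlap between the groups at 48 h and the test of their kind, and were the 2 largest per direction by fold, by fold with at least 5 CPM in each line, by CPM difference, and by contrast with the other times. The mean of the other 5 times was also fitted on those 30 libraries alone, which was added after seeing the data. The members, rules and tests were chosen with earlier results of these data known. Alternatives were DESeq2 1.42.0 and its size factors, no filter, robust fitting, limma 3.58.1 on log2(FPKM + 1) or log2(FPKM + 0.1), blocks for the replicate number, fits of fewer groups, and leaving out libraries. On simulated data for 23719 IDs, the test at 48 h found 53% of 2-fold and 77% of 4-fold changes and made 4 false calls. The contrast with the other times found 43% and 73% and made 5. The simulation changed 100 IDs per fold in the resistant line at 48 h and held no other line difference. It also put no transcripts of the other line into replicate 3, so its rates may differ from those in these data. Replicates differed by more than sampling noise (chi-square per ID 50.3 to 112). The labels do not say whether the replicates are separate plants, so p-values measure the spread between these libraries.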

Additional observations from a re-analysis of the deposited data

Results flagged for a closer look

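The line difference at 48 h was distinct from its mean at the other 5 times for 982 IDs, from that at 0 h for 171 and from that at 24 h for 32, each by a direct test of the difference between times. The mean of the other 5 times would mix hours of the day, which cannot be told apart from feeding there. Among IDs with at least 5 CPM in each line over the other times, at least 5 CPM in the higher line at 48 h and no overlap between the lines there, the largest contrasts with the mean of the other times, on the log2 scale, were 7.16 for Sme2.5_00629.1_g00005, 5.66 for Sme2.5_02035.1_g00009, -10.91 for Sme2.5_00658.1_g00002 and -8.11 for Sme2.5_03245.1_g00008. The value of Sme2.5_00658.1_g00002 depends on the prior count, since the resistant line had no count of it at 48 h. That of Sme2.5_03245.1_g00008 does too, since the susceptible line had no count of it at 12 h. This ID reached 5 CPM in the susceptible line over the other times through 1 library at 4 h, at 178 CPM. Without resistant 48 h replicate 3, the 982 became 442, and the calls of Sme2.5_00629.1_g00005, Sme2.5_02035.1_g00009 and Sme2.5_03245.1_g00008 were lost. Of these 3 contrasts, the first stood at 7.10 and the last at -8.03 without that library, whereas Sme2.5_02035.1_g00009 went to 4.20.

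The rows without a gene ID, which entered no comparison, also carried a line difference at 48 h. Of 3301 such rows tested with the same scaling, 1707 differed in edgeR's quasi-likelihood test, 533 higher and 1174 lower in the resistant line. Of the 23719 IDs tested, 10028 (42.3%) differed, 4552 (19.2%) higher and 5476 (23.1%) lower. Both counts include resistant 48 h replicate 3, and the rows were not tested without it.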

How the results depend on the processing

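The number of IDs that differ at 48 h stayed within 1.5 times under DESeq2, its size factors, no filter, robust fitting, limma on FPKM and the fit of 6 libraries, and ran from 8193 to 9569 with 1 library left out (3374 to 3763 beyond 2-fold). On IDs with a mean FPKM of at least 1, the median log2 line difference was 0.00 by edgeR and 0.02 on deposited FPKM. For libraries of the same replicate number, deviations from group means correlated between lines at -0.095 to 0.032, and for others at -0.105 to 0.093. Groups of 3 libraries are too small for this to decide whether the numbers pair the libraries. With a replicate block the count was 5015 in the 6 libraries, and in 36 libraries 2236 passed beyond 2-fold, 295 against the other times, 61 against 0 h and 12 against 24 h.

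Against the other times, limma on log2(FPKM + 1), which covers fewer IDs, gave 639 (312 higher, 327 lower), DESeq2 1715, and leaving out 1 library 442 to 1432. Against 0 h, DESeq2 gave 890, the fit of 12 libraries 22, and leaving out 1 library 52 to 488. Against 24 h, DESeq2 gave 339, limma on log2(FPKM + 1) 73, the fit of 12 libraries 15, and leaving out 1 library 13 to 62. The cause was not tested. IDs absent from the resistant line numbered 508 to 845 with 1 library left out, and 100 at a minimum of 5 CPM in the other line, where 89 were absent from the susceptible line (284 to 353 with 1 library left out). At a minimum of 1 CPM, 44.8% of the susceptible-line IDs had a count in resistant replicate 3. Of 16 named IDs, 9 kept their call under all alternatives run, none changed sign, and 16 of 220 alternatives ended a call. Of the block fits, that of 6 libraries ended the calls of Sme2.5_00145.1_g00001, Sme2.5_02386.1_g00003 and Sme2.5_03628.1_g00001 (edgeR adjusted p 0.056 to 0.097), and that of 36 libraries those of all 4 IDs named for the contrast. Depth limits IDs of low level, since a deposited count of 1 can stand for less than 1 read.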
